A study of Mus musculus with 24 samples.

Results

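The comparison set the 3 arrays of NIH3T3 cells harvested 600 min after the addition of spermidine against the 3 arrays harvested at 480 min, which together are 6 of the 24 arrays of a time course with 8 harvest times. NIH3T3 is an immortalised line of mouse embryonic fibroblasts. Cells of both groups had been kept for 96 h in 1 mM DFMO (difluoromethylornithine), an irreversible inhibitor of ornithine decarboxylase, and then received spermidine at 10 µM in the presence of 1 mM aminoguanidine, an inhibitor of the oxidases that degrade it. The 3 arrays of a time are labelled as biological replicates. Dishes left in DFMO without spermidine up to the same hours were not analysed here, so time with spermidine and time in culture cannot be told apart. Levels are given on the log2 scale of the deposited arrays, where a difference of 1 means 2 times the signal, and since probes differ in brightness, levels of different genes do not show which RNA is more abundant.

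Spermidine and the other polyamines are small positively charged molecules that bind RNA and DNA and are needed for growth, and cells blocked in their synthesis stop dividing. Dividing cells have to make new membrane. Cholesterol is built from acetyl-CoA through mevalonate and squalene, and fatty acids from acetyl-CoA through malonyl-CoA, and many genes of both routes are targets of the SREBP transcription factors. Replication-dependent histone genes are transcribed in S phase, when DNA is copied, and genes of the mitotic machinery follow in G2.

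Of the 19938 genes tested, 36 (0.181%) were called at 600 min against 480 min, that is at a Benjamini-Hochberg adjusted p under 0.05 in limma, of which 30 were higher (0.150% of all genes) and 6 lower (0.0301%). The 3 arrays at 600 min lay beyond the 3 at 480 min in all 36. Over all genes 6.57% were higher and 5.45% lower without overlap. The calls come from these same arrays, so separation of the groups in a called gene, here and below, is no further support for its call. Rises ran from 0.28 to 0.93 with a median of 0.49, and falls from -0.20 to -0.35. No gene of the whole table differed by 1 or more. The largest group among the rises was lipid synthesis: 6 of the 30 belong to the list of cholesterol synthesis, 5 to that of fatty acid synthesis and 1 to that of SREBP control and lipoprotein uptake. Another 2 are histones, 2 are genes of mitosis, and 14 are in none of the lists. None of the 6 falls is in a list.

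Without adjustment, 946 genes were higher at 600 min (4.74%) and 753 lower (3.78%) at a p under 0.05. An effect of replicate number had been taken out of the values before deposit, and a fit that carries the replicate number as a block called 21 genes (0.105%), 17 higher (0.0853%) and 4 lower (0.0201%), all of them among the 36. The count moved when arrays were left out. It fell to 23 without replicate 1 at 480 min and to 18 without replicate 2 at 480 min. It was 91, a set that holds all 36, without replicate 3 at 120 min and replicate 3 at 240 min. Those 2 arrays were left out because they stand apart from the others. In the comparison they enter only through the shared estimate of the spread. The genes called in the fit with the block and in each of the 6 fits that leave out 1 of the compared arrays were 14: Acsbg1, Acss2, Elovl6, Galnt15, H1f5, Hsd17b7, Mblac2, Mvk, Nsdhl, Pmvk, Tlcd1 and Tm7sf2, which rose, and Pkia and Smg5, which fell. Each of the other 22 lost its call in at least 1 of these 7 fits.

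**Figure D1:**
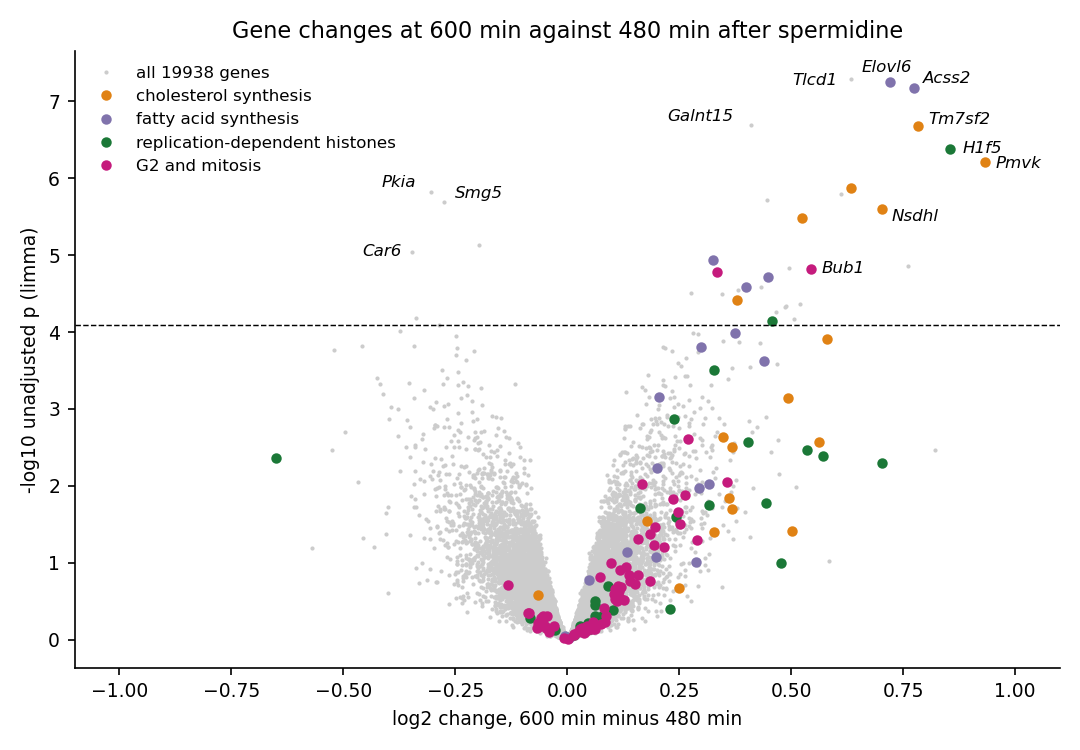
Log2 change at 600 min minus 480 min (x axis) against -log10 of the unadjusted p from limma (y axis) for the 19938 genes tested, with the members of 4 gene lists in colour and the dashed line at the largest p among called genes. Above the line lie 30 genes on the right and 6 on the left, and 11 of those on the right belong to cholesterol or fatty acid synthesis.

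Markers of the labelled cell type and of other cells were read at both times. The 12 fibroblast markers had a median of 10.81 at 600 min and 10.89 at 480 min. Vim, the intermediate filament protein of mesenchymal cells, averaged 12.78 ± 0.02 at 600 min and 12.76 ± 0.05 at 480 min, and Col1a2, a chain of type I collagen, 11.46 ± 0.11 at 600 min and 11.61 ± 0.09 at 480 min (SD, n = 3 each), while Thy1, the dimmest of the list, averaged 6.15 at 600 min and 6.20 at 480 min. Ptprc of leukocytes averaged 3.79 at 600 min and 3.74 at 480 min, Epcam of epithelium 3.83 at 600 min and 3.84 at 480 min, and Pecam1 of endothelium 3.86 at 600 min and 3.83 at 480 min, where the median gene of an array lay at 4.352 to 4.373. Some markers of other cells read above Thy1, with Krt14 at 7.84 at 600 min and 7.97 at 480 min, Lyz2 at 7.18 at 600 min and 7.39 at 480 min, and Lpl at 6.92 at 600 min and 7.09 at 480 min. None of the 57 markers in 6 lists was called by limma with or without the block, and 2 had an unadjusted p under 0.05. In RNA from whole dishes, a change in the share of cells in a given state and a change in the RNA per cell cannot be told apart.

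Cholesterol synthesis was the list with the most called members. Of its 18 measured genes 6 rose, against 0.150% of all genes, and 5 of these also rose in the fit with the block. Between the groups 17 of the 18 (94.4%) did not overlap, all higher at 600 min, against 6.57% of all genes. The median change was 0.436, against 0.002 over all genes. The list was drawn up with earlier results of these data known, so its direction is no independent evidence.

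The 2 kinases that follow mevalonate both rose. Pmvk, phosphomevalonate kinase on chromosome 3, read 7.33, 7.43 and 6.93 in replicates 1 to 3 at 600 min and 6.17, 6.06 and 6.67 at 480 min. The groups did not overlap, although replicate 3 was the lowest at 600 min and the highest at 480 min. The change of 0.93 ± 0.13 (standard error of the model, as for all changes below) corresponds to 1.91-fold and was the largest rise of the table (adjusted p = 0.00176). Mvk, mevalonate kinase on chromosome 5, read 8.20, 8.15 and 8.13 at 600 min and 7.59, 7.49 and 7.50 at 480 min. Its groups lay well apart, with a change of 0.63 ± 0.09 (1.55-fold, adjusted p = 0.0032).

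The other called members act on sterols after the ring system is closed. Tm7sf2, a sterol reductase of the endoplasmic reticulum, read 6.66, 6.78 and 6.75 at 600 min and 6.02, 5.87 and 5.96 at 480 min, a change of 0.78 ± 0.10 (adjusted p = 0.000836). Nsdhl and Hsd17b7 are enzymes of the removal of the methyl groups of lanosterol. Nsdhl read 9.57, 9.72 and 9.54 at 600 min and 9.03, 8.81 and 8.88 at 480 min, a change of 0.70 ± 0.11 (adjusted p = 0.00386). Hsd17b7 read 9.39, 9.46 and 9.55 at 600 min and 8.94, 8.87 and 9.02 at 480 min, a change of 0.53 ± 0.08 (adjusted p = 0.00473). In these 3 genes every array at 600 min lay above every array at 480 min. Sc5d, which introduces a double bond late in the route, had a change of 0.38 ± 0.07 (adjusted p = 0.0274) and lost its call with the block (adjusted p = 0.0745).

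The 12 members that did not pass the test had changes between -0.07 and 0.58. Lss, which closes the sterol rings, came nearest, with 10.08 ± 0.07 at 600 min and 9.50 ± 0.08 at 480 min and a change of 0.58 ± 0.12 (adjusted p = 0.0583). Dhcr7, which makes cholesterol in the last step, had a change of 0.49 ± 0.12 (adjusted p = 0.139), and Mvd, the decarboxylase after Pmvk, 0.56 ± 0.16 (adjusted p = 0.236). At the head of the route, Hmgcs1, which makes HMG-CoA, had a change of 0.25 ± 0.19 (adjusted p = 0.788). Further along the route, the oxygenase Sqle had one of 0.36 ± 0.13 (adjusted p = 0.427). Ggps1, which leads away from sterols to geranylgeranyl groups, was the only member with a lower mean at 600 min, with a change of -0.07 ± 0.06 and overlapping groups.

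Promoter windows of 4 risen genes are printed because their lists share sequence motifs, and the first 2 are those of the cholesterol enzymes Mvk and Nsdhl. The windows run from 250 bases before to 50 bases after the start in RefSeq on GRCm38.p6, 5′ to 3′ on the strand of the gene. Capitals mark CCAAT or its complement ATTGG, the letters bound by the factor NF-Y, of which the Mvk window at chr5:114444019-114444318 on the plus strand holds 5 and the Nsdhl window at chrX:72918271-72918570 on the plus strand 4.
Mvk: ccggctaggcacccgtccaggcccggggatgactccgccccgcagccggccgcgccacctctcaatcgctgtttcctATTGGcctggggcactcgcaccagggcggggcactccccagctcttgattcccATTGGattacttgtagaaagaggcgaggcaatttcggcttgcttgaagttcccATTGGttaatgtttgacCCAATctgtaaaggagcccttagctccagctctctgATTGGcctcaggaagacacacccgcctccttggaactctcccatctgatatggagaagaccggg
Nsdhl: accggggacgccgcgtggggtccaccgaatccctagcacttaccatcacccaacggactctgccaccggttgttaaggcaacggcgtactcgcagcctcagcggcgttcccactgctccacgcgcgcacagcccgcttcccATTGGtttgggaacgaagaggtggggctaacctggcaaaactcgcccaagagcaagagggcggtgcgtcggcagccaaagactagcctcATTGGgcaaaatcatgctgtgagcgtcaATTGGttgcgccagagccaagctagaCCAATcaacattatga

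RefSeq windows were matched to 15 of the 18 genes of cholesterol synthesis, with 18 windows in all, since some genes have several starts. CCAAT on either strand was in 15 of these 18 windows (83.3%), against 37.4% of all 32851 windows. It was in 18 of 33 windows (54.5%) of the genes that rose and in 2 of 5 windows (40%) of those that fell. TCACNCCAC, a form of the sterol response element, was in 1 of the 18 windows (5.56%), against 1.24% of all windows. Mvk and Mmab, which makes the active form of cobalamin and also rose in limma but not with the block (adjusted p = 0.0786), start 242 bases apart on opposite strands of chromosome 5, and their windows share 259 bases. A match is a description of these letters and not a bound site.

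Some genes that supply acetyl-CoA and make fatty acids also rose. Of 18 measured genes 5 rose, against 0.150% of all genes, and none fell, and 3 of the 5 also rose with the block. In 13 (72.2%, against 6.57% of all genes) the groups did not overlap and 600 min was higher, and the median change was 0.297. Acss2, which makes acetyl-CoA from acetate, read 7.08, 6.80 and 6.82 at 600 min and 6.12, 5.91 and 6.34 at 480 min. The lowest array at 600 min was thus above the highest at 480 min, and the change was 0.78 ± 0.09 (adjusted p = 0.000443). Elovl6, an elongase of long-chain fatty acids, read 9.56, 9.47 and 9.37 at 600 min and 8.76, 8.68 and 8.81 at 480 min, a change of 0.72 ± 0.09 (adjusted p = 0.000443). Its groups were also fully apart.

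Acly, which cleaves citrate to acetyl-CoA in the cytosol, averaged 10.61 ± 0.09 at 600 min and 10.17 ± 0.06 at 480 min, a change of 0.45 ± 0.08 (adjusted p = 0.0176). Slc25a1, the carrier that brings citrate out of mitochondria, averaged 9.35 ± 0.04 at 600 min and 8.95 ± 0.04 at 480 min, a change of 0.40 ± 0.07 (adjusted p = 0.0216). Both missed the threshold in the fit with the block, with adjusted p of 0.0505 and 0.061. Acsl4, which activates polyunsaturated fatty acids, rose by 0.33 ± 0.06 (adjusted p = 0.0135) and kept its call with the block. The desaturases came close without passing: Scd1 had a change of 0.38 ± 0.08 (adjusted p = 0.0527), Fads1 of 0.30 ± 0.06 (adjusted p = 0.0626) and Fads2 of 0.44 ± 0.10 (adjusted p = 0.08). Fasn, the fatty acid synthase itself, averaged 10.46 ± 0.27 at 600 min and 10.16 ± 0.10 at 480 min, and its groups overlapped (change 0.30 ± 0.11, adjusted p = 0.388).

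Among 16 genes that control the SREBP factors or move sterols, 1 rose, against 0.150% of all genes. The median change was 0.043, against 0.002 over all genes. Lpin1, a phosphatidate phosphatase of glycerolipid synthesis that also acts on SREBP factors, read 7.02, 6.83 and 6.78 at 600 min and 6.48, 6.24 and 6.49 at 480 min, without overlap. Its change was 0.47 ± 0.09 (adjusted p = 0.0338, and 0.0856 with the block). Srebf2, the SREBP factor of cholesterol synthesis, had a change of 0.14 ± 0.07 and Srebf1, that of fatty acid synthesis, of -0.03 ± 0.07 (adjusted p = 0.591 and 0.944). Insig1, which holds the SREBP complex in the endoplasmic reticulum, had a change of 0.25 ± 0.17, and the sterol exporter Abca1 one of -0.29 ± 0.11 (adjusted p = 0.743 and 0.483).

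**Figure D2:**
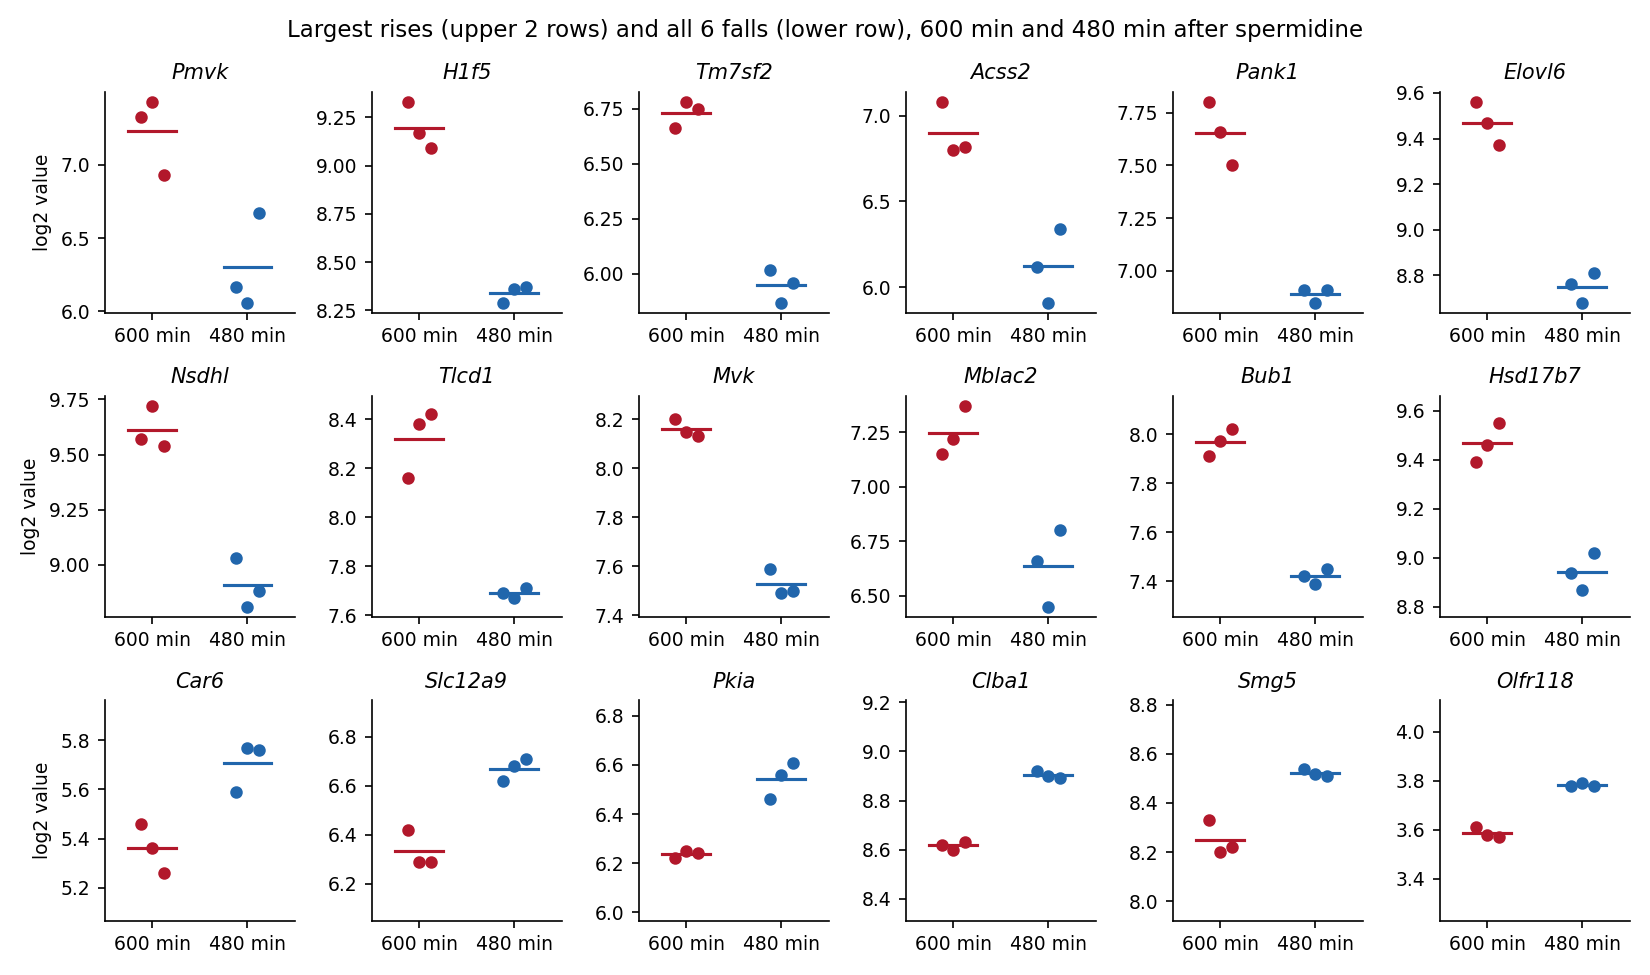
Deposited log2 values (y axis, with its own range in each panel) of the 12 largest rises and all 6 falls, each dot 1 array and each line the mean of 3 arrays, with 600 min left of 480 min. The genes were picked among called genes whose times do not overlap, so no panel can show overlap. Pmvk and Acss2 have the widest spread within a time among the rises.

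Of the 14 genes that rose without being in a list, Pank1, Tlcd1 and Mblac2 had the largest changes. Pank1, a pantothenate kinase at the start of coenzyme A synthesis, read 7.80, 7.66 and 7.50 at 600 min and 6.91, 6.85 and 6.91 at 480 min. The change was 0.76 ± 0.13 (adjusted p = 0.015), but the call was lost in 4 of the 6 fits that leave out an array, with adjusted p up to 0.0798. Tlcd1, a plasma membrane protein that affects the fatty acids of membrane lipids, read 8.16, 8.38 and 8.42 at 600 min and 7.69, 7.67 and 7.71 at 480 min, a change of 0.63 ± 0.07 (adjusted p = 0.000443). Mblac2 read 7.15, 7.22 and 7.37 at 600 min and 6.66, 6.45 and 6.80 at 480 min, a change of 0.61 ± 0.09 (adjusted p = 0.0032). In all 3 genes the groups were apart, which the naming rule required.

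The other rises outside the lists, apart from Slc30a6, fall beyond the naming rule and were chosen after their values were seen. Scarb1, a receptor for high-density lipoprotein, had a change of 0.52 ± 0.10, the retinol dehydrogenase Rdh11 of 0.49 ± 0.09, Erg28, named after a yeast gene of ergosterol synthesis, of 0.49 ± 0.09, and Mmab of 0.49 ± 0.09 (adjusted p between 0.015 and 0.0307). With the block Rdh11 kept its call (adjusted p = 0.043), and Scarb1, Erg28 and Mmab lost it (adjusted p from 0.0759 to 0.0786). Leaving out single arrays ended the call of Mmab in 5 of 6 fits, of Scarb1 and Erg28 in 4 and of Rdh11 in 3. Acsbg1, an acyl-CoA synthetase, averaged 5.06 ± 0.12 at 600 min and 4.61 ± 0.01 at 480 min, a change of 0.45 ± 0.07 (adjusted p = 0.00342). Galnt15, a transferase that starts O-linked glycans, averaged 4.58 ± 0.14 at 600 min and 4.17 ± 0.02 at 480 min, a change of 0.41 ± 0.05 (adjusted p = 0.000836). Both are dim, near the median gene of an array. The remaining ones were Mtmr11 (0.51), the tubulin gene Tuba1a (0.43), the innate immune receptor Tlr2 (0.38), the membrane protein Pdzk1ip1 (0.35) and the zinc transporter Slc30a6 (0.28), with adjusted p from 0.0216 to 0.0402 and none called with the block. Tuba1a has near-identical copies in the genome, so its probes may also read other tubulin RNAs.

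Replication-dependent histones, which package newly copied DNA, were higher in part. Of 27 measured genes 2 rose, against 0.150% of all genes, and none fell, and 1 of the 2 also rose with the block. The groups did not overlap in 13 that were higher (48.1%, against 6.57% of all genes) and in 1 that was lower (3.7%, against 5.45% of all genes), and the median change was 0.162. H1f5, a linker histone gene on chromosome 13, read 9.33, 9.17 and 9.09 at 600 min and 8.29, 8.36 and 8.37 at 480 min. All arrays at 600 min lay above those at 480 min, and the change of 0.85 ± 0.12 (1.81-fold, adjusted p = 0.0014) was exceeded only by that of Pmvk. H2ac15, a core histone H2A gene, read 6.61, 6.86 and 6.83 at 600 min and 6.33, 6.43 and 6.16 at 480 min, a change of 0.46 ± 0.09 (adjusted p = 0.0411, and 0.101 with the block).

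Other histone genes had changes as large with a wider spread. H2ac4 averaged 6.04 ± 0.43 at 600 min and 5.33 ± 0.27 at 480 min and its groups overlapped (change 0.70 ± 0.22, adjusted p = 0.298). H2bc4 lay the other way, at 8.33 ± 0.12 at 600 min and 8.98 ± 0.36 at 480 min, with a change of -0.65 ± 0.20 that did not pass either (adjusted p = 0.276). Among members with a mean of at least 5, the median change was 0.423. Histone genes are near-identical copies of each other, so a probe set can read RNA of several.

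Histone H3 itself was measured mostly by probe sets that list several genes and were left out of the 19938. There were 10 probe sets that list the same 12 replication-dependent H3 genes. In a fit of all 33548 probe sets and genes together 9 of the 10 rose. These 9 are among 14 that rose of all 13610 probe sets with several symbols or none. The 10 read 10.54 to 11.18 at 600 min and 10.05 to 10.55 at 480 min. In each of the 10 the groups did not overlap, against 6.57% of the 19938 genes that were higher without overlap. The changes of 0.56 to 0.60 (adjusted p from 0.0279 to 0.0546) are not 10 separate results, since the probe sets read the same RNAs. Of 6 probe sets that list several H4 genes none was called, with changes of 0.09 to 0.42 (lowest adjusted p = 0.376). In 5 of them 600 min was higher without overlap and the unadjusted p was under 0.05. Among the 19938 genes the shares were 6.57% and 4.74%. Each of these 5 lists 11 genes, so they are not 5 separate results either.

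The windows of the linker histone H1f5 and of the mitotic kinase Bub1 are shown for the motifs of cell cycle genes. Capitals mark CCAAT or its complement in both, TATAAA in the H1f5 window at chr13:21780576-21780875 and TTCGAA in the Bub1 window at chr2:127831810-127832109, both on the minus strand. The H1f5 window holds 3 CCAAT and 1 TATAAA, and the Bub1 window 2 CCAAT and 1 TTCGAA.
H1f5: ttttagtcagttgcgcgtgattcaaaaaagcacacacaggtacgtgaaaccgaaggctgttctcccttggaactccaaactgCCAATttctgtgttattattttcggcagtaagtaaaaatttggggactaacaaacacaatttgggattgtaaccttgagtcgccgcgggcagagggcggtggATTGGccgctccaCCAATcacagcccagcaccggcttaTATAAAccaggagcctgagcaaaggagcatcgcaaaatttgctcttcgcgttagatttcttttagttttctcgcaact
Bub1: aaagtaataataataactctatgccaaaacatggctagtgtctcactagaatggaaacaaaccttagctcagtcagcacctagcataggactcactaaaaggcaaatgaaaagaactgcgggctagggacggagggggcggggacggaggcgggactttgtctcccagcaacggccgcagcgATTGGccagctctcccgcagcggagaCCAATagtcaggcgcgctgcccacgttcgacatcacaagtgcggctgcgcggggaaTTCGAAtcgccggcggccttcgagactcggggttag

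CCAAT was in 19 of 23 windows of the histone list (82.6%) and in 49 of 66 windows of the list of G2 and mitosis (74.2%), against 37.4% of all windows. TATAAA, the core of the TATA box, was in 15 of the 23 histone windows (65.2%), against 13.6% of all. TTTGAA, the letters of the cell cycle homology region bound by the MuvB complex, was in 42 of the 66 mitosis windows (63.6%), against 17.9% of all, and its variant TTCGAA in 6 (9.09%), against 1.56%. TTTGAA was not particular to the mitosis list, as 12 of the 23 histone windows (52.2%) also held it, while TTCGAA was in 0 of them. These shares describe the letters of the windows and were not set against the changes at 600 min.

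Genes of G2 and mitosis were mostly higher by small amounts. Of 69 measured genes 2 rose, against 0.150% of all genes, and 54 had a higher mean at 600 min, against 51.4% of all genes. The groups did not overlap in 10 that were higher (14.5%, against 6.57% of all genes), with a median change of 0.083. Bub1, a kinase of the spindle checkpoint, read 7.91, 7.97 and 8.02 at 600 min and 7.42, 7.39 and 7.45 at 480 min. Arrays within a time differed little, and the change was 0.54 ± 0.10 (1.46-fold, adjusted p = 0.015). Melk, a kinase of dividing cells, read 6.18, 6.13 and 6.16 at 600 min and 5.80, 5.85 and 5.82 at 480 min, a change of 0.34 ± 0.06 (adjusted p = 0.0158). Both calls held with the block, and both were lost when single arrays were left out, with adjusted p up to 0.0817 for Bub1 and 0.0828 for Melk. The proliferation marker Mki67 had a change of 0.36 ± 0.12 and Nuf2 of the kinetochore one of 0.27 ± 0.08, neither of which passed (adjusted p = 0.369 and 0.23).

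No gene of the replication machinery was called in this interval. Of 27 genes for origin licensing and the MCM helicase limma called 0, with 0 at an unadjusted p under 0.05 and 0 called with the block, and the median change was -0.011. Of 28 fork polymerases, clamps and ligases 0 were called with or without the block. At an unadjusted p under 0.05, 3 were higher, against 4.74% of all genes, and the median change was 0.036. Orc1, a subunit of the origin recognition complex, read 5.36, 5.38 and 5.39 at 600 min and 5.63, 5.77 and 5.44 at 480 min, lower at 600 min without overlap (change -0.23 ± 0.22, adjusted p = 0.833). Between 240 and 360 min, for comparison, 19 of the 27 and 26 of the 28 had risen, against 4.25% of all genes.

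**Figure D3:**
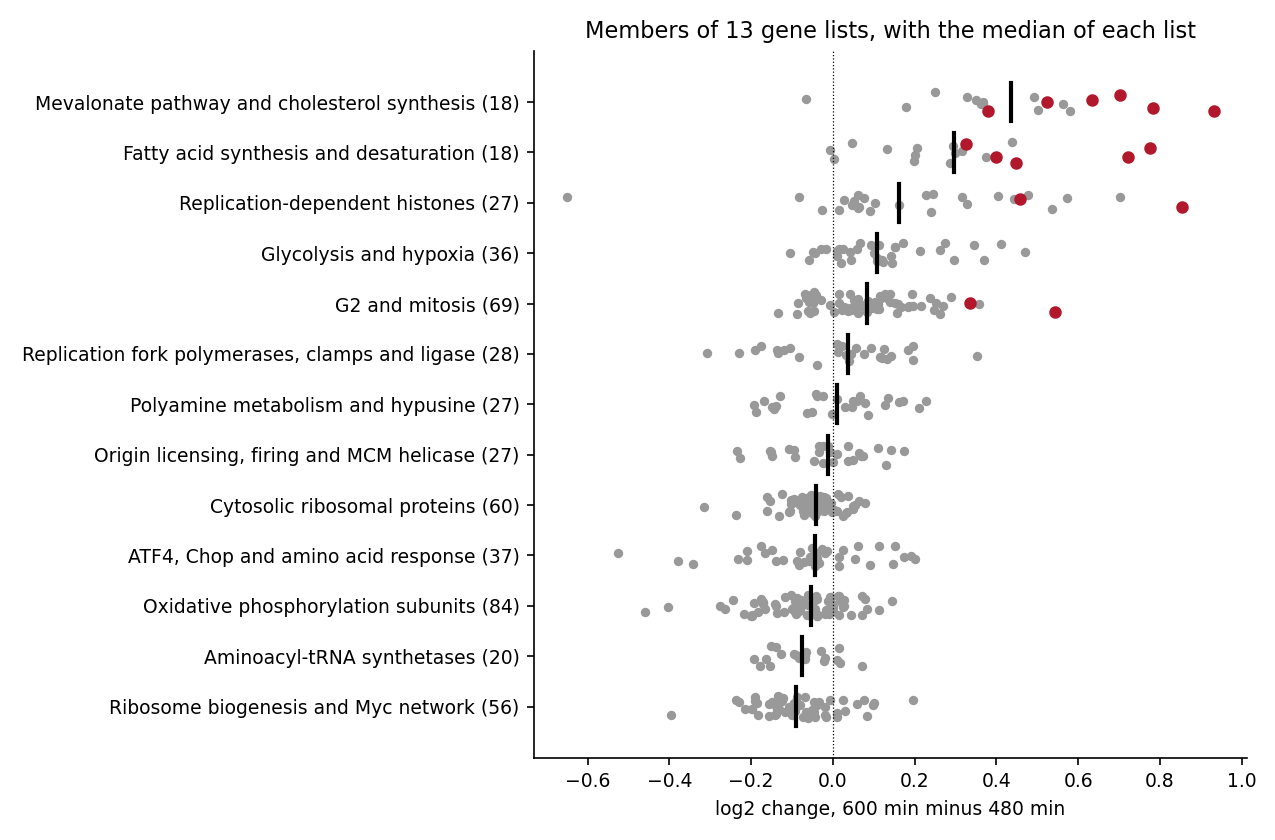
Log2 change at 600 min minus 480 min (x axis) of the members of 13 gene lists, with the number measured in parentheses, each dot 1 gene, red where called in limma, and black bars at the list medians. The medians run from 0.436 for cholesterol synthesis at the top to -0.091 for ribosome biogenesis at the bottom, and of these 13 lists those with red dots are cholesterol synthesis, fatty acid synthesis, histones and G2 and mitosis.

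All 6 falls were smaller than the median rise of 0.49. Car6, a secreted carbonic anhydrase, read 5.46, 5.36 and 5.26 at 600 min and 5.59, 5.77 and 5.76 at 480 min, a change of -0.35 ± 0.06 (adjusted p = 0.0113). Pkia, an inhibitor of protein kinase A, read 6.22, 6.25 and 6.24 at 600 min and 6.46, 6.56 and 6.61 at 480 min, a change of -0.30 ± 0.05 (adjusted p = 0.0032). Smg5, a factor of nonsense-mediated mRNA decay, read 8.33, 8.20 and 8.22 at 600 min and 8.54, 8.52 and 8.51 at 480 min, a change of -0.28 ± 0.04 (adjusted p = 0.00342). In each of these 3 genes the highest array at 600 min lay below the lowest at 480 min.

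Slc12a9, a member of the cation-chloride cotransporter family, read 6.42, 6.29 and 6.29 at 600 min and 6.62, 6.68 and 6.71 at 480 min, a change of -0.34 ± 0.07 (adjusted p = 0.04, and 0.101 with the block). Clba1, which carries a clathrin-binding motif, read 8.62, 8.60 and 8.63 at 600 min and 8.92, 8.90 and 8.89 at 480 min. Its arrays agreed closely within each time, yet the change of -0.29 ± 0.06 (adjusted p = 0.0454) lost its call in each of the 6 fits that leave out an array and with the block (adjusted p = 0.12). Olfr118, an olfactory receptor gene, read 3.61, 3.58 and 3.57 at 600 min and 3.78, 3.79 and 3.78 at 480 min, below the median gene of every array, with a change of -0.20 ± 0.03 (adjusted p = 0.0097).

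Some lists without a gene called by limma, with or without the block, had medians away from 0. In the list of glycolysis and hypoxia, 30 of 36 genes had a higher mean at 600 min, against 51.4% of all genes. Of the 36, 8 were higher at an unadjusted p under 0.05, against 4.74% of all genes, and the median change was 0.108. Pdk1, which restrains entry of pyruvate into mitochondria, read 7.11, 6.96 and 7.10 at 600 min and 6.60, 6.63 and 6.53 at 480 min, with a change of 0.47 ± 0.14 that did not pass (adjusted p = 0.231). Egln1, an oxygen-sensing hydroxylase, had a change of 0.41 ± 0.12 and the glycolytic regulator Pfkfb4 one of 0.28 ± 0.07 (adjusted p = 0.21 and 0.113). In both the groups did not overlap.

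Genes of ribosome production lay on the other side. In the list of ribosome biogenesis and the Myc network, 46 of 56 genes had a lower mean at 600 min, against 48.6% of all genes. Of the 56, 17 were lower without overlap (30.4%, against 5.45% of all genes). At an unadjusted p under 0.05, 14 were lower, against 3.78% of all genes, and the median change was -0.091. Fbl, the methyltransferase fibrillarin of the nucleolus, read 7.51, 7.81 and 7.80 at 600 min and 8.28, 8.07 and 7.95 at 480 min, a change of -0.40 ± 0.11 that did not pass (adjusted p = 0.186). Lower means also prevailed among ribosomal proteins (47 of 60, median -0.042), aminoacyl-tRNA synthetases (16 of 20, -0.075) and subunits of oxidative phosphorylation (66 of 84, -0.053). These had 6, 3 and 9 genes lower at an unadjusted p under 0.05, against 3.78% of all genes. Ndufa11, a subunit of complex I, came nearest to the threshold with 8.19, 8.19 and 7.95 at 600 min and 8.53, 8.57 and 8.61 at 480 min (change -0.46 ± 0.10, adjusted p = 0.0626).

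The amino acid response driven by ATF4, also without a call in either fit, had 25 of 37 genes lower, against 48.6% of all genes. The median change was -0.043. At an unadjusted p under 0.05, 6 genes were lower and 2 higher, against 3.78% and 4.74% of all genes. The stress factor Ddit3 read 5.92, 5.97 and 5.68 at 600 min and 6.47, 6.26 and 6.41 at 480 min, without overlap (change -0.53 ± 0.16, adjusted p = 0.257). Slc7a5, a carrier of large amino acids, had a change of -0.38 ± 0.10 and Asns, asparagine synthetase, of -0.21 ± 0.06 (adjusted p = 0.162 and 0.192).

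Polyamine genes themselves gave no call in limma, with or without the block. Of 27 measured, 2 were higher and 3 lower at an unadjusted p under 0.05, against 4.74% and 3.78% of all genes. The median change was 0.010. Odc1, ornithine decarboxylase and the target of DFMO, read 9.50, 9.33 and 9.33 at 600 min and 9.49, 9.62 and 9.63 at 480 min, so that replicate 1 was equal at both times within 0.01 and the groups overlapped (change -0.19 ± 0.07, adjusted p = 0.386). Azin1, which relieves ornithine decarboxylase from antizyme, had a change of 0.17 ± 0.08 and the antizyme Oaz2 one of 0.23 ± 0.16. Srm, spermidine synthase, had a change smaller than its error, at -0.04 ± 0.07. Sat1, which acetylates spermidine for export, had a change of 0.09 ± 0.07 and Smox, spermine oxidase, of 0.06 ± 0.11. None of these passed the test (adjusted p from 0.596 to 0.935).

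The 480 min arrays also end the interval before, from 360 to 480 min, so the changes of both intervals share them and are set side by side only. Of the 30 genes that rose at 600 min, 28 had a positive and 20 a called rise at 480 min against 360 min, where 0.291% of all genes were called higher. Between 240 and 360 min 16 of the 30 had risen, against 4.25% of all genes. At 360 min against 0 min 20 of the 30 were higher and 2 lower, against 8.47% and 10.5% of all genes. Those 2 were the histones H1f5 and H2ac15. H1f5 averaged 8.11 ± 0.25 at 0 min, 6.82 ± 0.08 at 60 min, 7.49 ± 0.11 at 360 min, 8.34 ± 0.04 at 480 min and 9.20 ± 0.13 at 600 min (SD, n = 3 each), so its mean at 600 min was above that before spermidine.

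The median change of the 18 genes of cholesterol synthesis was 0.863 at 360 min against 240 min and 0.660 at 480 min against 360 min. It was 0.436 at 600 min against 480 min. Called higher were 14, 13 and 6 of these genes in that order, against 4.25%, 0.291% and 0.150% of all genes. Single genes differed. Pmvk averaged 5.17 ± 0.16 at 0 min, 5.34 ± 0.03 at 360 min, 6.30 ± 0.33 at 480 min and 7.23 ± 0.27 at 600 min, and had not been called at 360 min against 240 min (adjusted p = 0.561). Nsdhl averaged 6.70 ± 0.24 at 240 min, 7.71 ± 0.16 at 360 min, 8.91 ± 0.11 at 480 min and 9.61 ± 0.10 at 600 min. For fatty acid synthesis the 3 medians were 0.304, 0.338 and 0.297 in the same order, and for G2 and mitosis 0.305, 0.166 and 0.083.

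**Figure D4:**
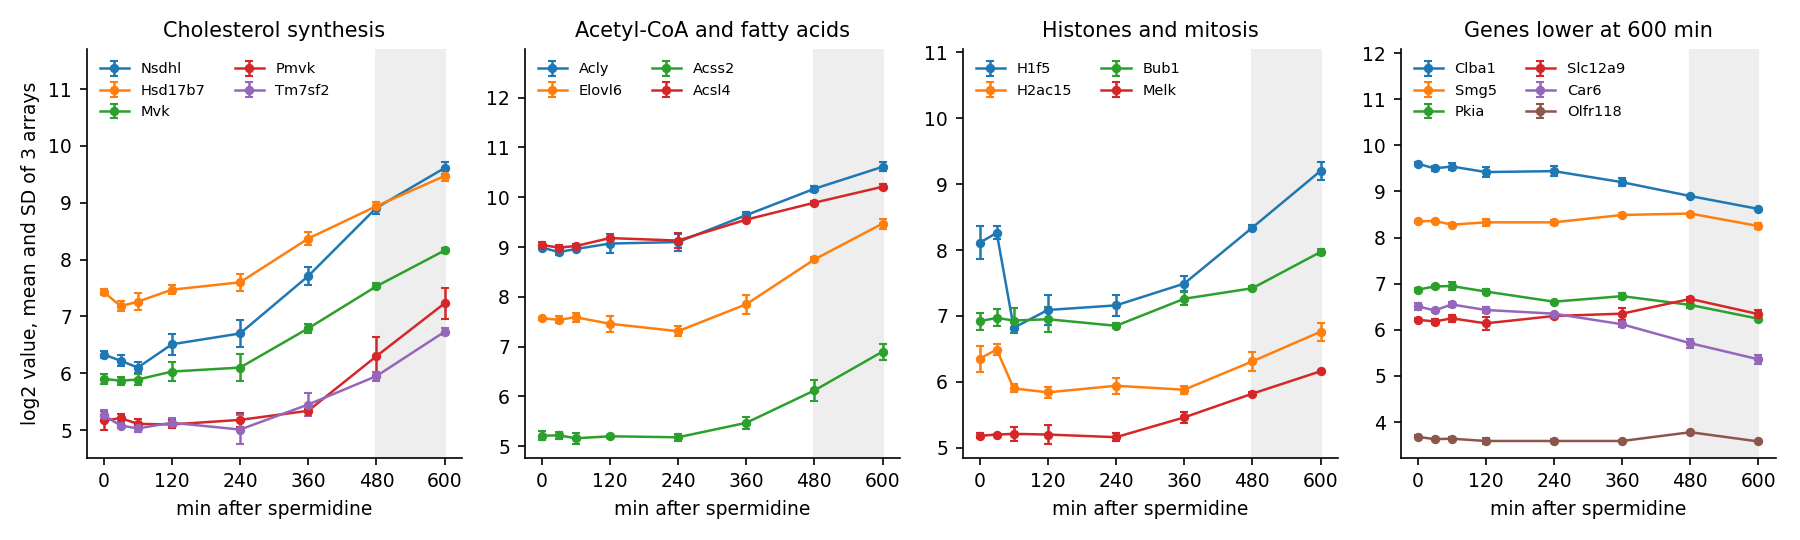
Log2 values (y axis, mean and SD of 3 arrays) over the 8 harvest times from 0 to 600 min (x axis) for 5 genes of cholesterol synthesis, 4 of acetyl-CoA and fatty acid metabolism, 4 of histones and mitosis and the 6 that were lower at 600 min, with the last interval shaded. The lipid genes and Melk have a higher mean at 360, 480 and 600 min than at the time before, H1f5 and H2ac15 lie lower from 60 to 360 min than at 0 min, and Slc12a9, Olfr118 and Smg5 have their highest mean at 480 min.

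The difference between the change from 480 to 600 min and that from 360 to 480 min was tested for every gene. Limma called 1 gene (0.00502%), and 987 had an unadjusted p under 0.05. The gene was Olfr118, which averaged 3.59 ± 0.02 at 360 min, 3.78 ± 0.01 at 480 min and 3.58 ± 0.02 at 600 min, a difference of -0.39 between the intervals (95% interval -0.51 to -0.27, adjusted p = 0.0235). It was not called with the block (adjusted p = 0.137). None of the 18 genes of cholesterol synthesis passed (lowest adjusted p = 0.95). The difference was negative in 17 of the 18, with a median of -0.26, and was not tested for the list as a whole. For Nsdhl the difference was -0.50 with a 95% interval of -0.88 to -0.11 before adjustment, and for Pmvk -0.02 with one of -0.49 to 0.44. Slc30a6 averaged 7.60 ± 0.02 at 360 min, 7.39 ± 0.05 at 480 min and 7.66 ± 0.07 at 600 min, so that its rise followed a lower mean at 480 min (difference 0.49, 95% interval 0.31 to 0.68, adjusted p = 0.139). The margin of the 95% interval on either side of the change from 480 to 600 min had a median of 0.118 over all genes. The difference between the intervals was less precise, with a median standard error of 0.0981, against 0.0567 for that change. Both limit what 3 arrays a time could show.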

How the data were processed

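RNA of 24 dishes was measured on Affymetrix MoGene 1.0 ST arrays from 200 ng of total RNA each, per the labels' protocols. The deposited values were made by the authors with Partek and RMA, per the submitters' processing notes, with versions not given in the sources used here, and were used as log2 values, a scale inferred from the values. In each gene the means of the 3 replicate numbers, taken over the 8 times, are the same (median gap 5.00e-06, largest 8.75e-05), so an effect of replicate number was removed before deposit by a step not described in the sources used here.

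The array holds 35399 probe sets: 11989 have no symbol in the platform annotation, 1621 have several and 21789 exactly 1. Tests used the last kind, with the brightest probe set on average for each of the 999 genes that had more than 1, and so covered 19938 genes. Of the symbols, 23 had no RefSeq match and were kept as given.

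All 24 arrays entered a limma fit with a mean for each time (limma 3.58.1, R 4.3.3), with two-sided moderated tests on 16 residual degrees of freedom and Benjamini-Hochberg adjustment over all genes within each comparison. The removed effect makes these degrees of freedom too many, so counts from a fit with the replicate number as a block (14) stand beside them. The code was tested on simulated data. No minimum change was set. The p-values measure the spread between these dishes that was left after the effect of replicate number was removed.

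Named by rule were the 12 largest rises and falls among called genes without overlap, passing over unnamed gene models, the 4 smallest p of each list, 10 polyamine genes where measured, and the 4 smallest p in each direction of the contrast between intervals. Other genes given were chosen after their values were seen. The members, the 42 gene lists and this rule were chosen with earlier results of these data known. Promoter windows came from RefSeq (GRCm38.p6), and motifs were searched on both strands.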

Additional observations from a re-analysis of the deposited data

Results flagged for a closer look

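Olfr118, an olfactory receptor gene read below the median gene of every array, was the single gene whose change differed between the last interval and the one before, by -0.392 on the log2 scale. It moved within 3.57 to 3.79 in the 6 arrays compared, and leaving out genes with a mean under 5 removes it.

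Outside the genes with 1 symbol, 16 of 13610 probe sets that list several symbols or none were called at 600 min against 480 min, 14 higher and 2 lower. The 9 with several symbols are the H3 probe sets described above. Of the 7 without a symbol, the largest change was -0.99, in a probe set that read 5.83, 6.07 and 5.71 at 600 min and 6.99, 6.80 and 6.79 at 480 min (adjusted p = 0.00253). The annotation used here gives it no gene.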

How the results depend on the processing

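The 36 calls became 21 with the replicate block, 18 in a fit of only the 6 arrays compared (11 of them shared with the 36) and 91 without replicate 3 of 120 min and replicate 3 of 240 min. They ranged from 18 to 47 when each compared array was left out in turn, with the 18 from leaving out replicate 2 at 480 min. A block without those 2 arrays, chosen after seeing the data, gave 46. Centring the arrays, averaging probe sets, a filter at a mean of 5, an intensity trend and a robust prior gave 36 to 44. The 15 calls lost with the block had adjusted p of 0.0505 to 0.12. Same-numbered arrays at the 2 times had correlations of deviations of 0.161, 0.08 and 0.069, and other-numbered arrays of -0.18 to 0.114. An effect of replicate number had been removed before deposit, so these values cannot decide whether the numbers are pairs. The main fit did not take them as pairs. The single call of the contrast between intervals became 0 with the block (732 genes at an unadjusted p under 0.05), with only 9 arrays (846), with the block and without the 2 arrays (893) and under the filter (324), and ranged from 0 to 1 when arrays were left out, with 0 in 6 of 9 cases. No change of a named gene or of a call was reversed, and 2799 gene values stayed on their side of the threshold while 141 lost and 21 gained a call. Of the list medians 40 moved, the widest being that of histones, from 0.095 without replicate 1 at 480 min to 0.423 under the filter. The cause was not tested. Only 3 arrays a time, and no measure of background, limit what dim genes can show.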

Other observations

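The lists of clock genes, immediate early genes and p53 targets had medians near that of all genes between the last harvests. The list of the unfolded protein response and endoplasmic reticulum folding, without a call in either fit, had a median of -0.071. Of its 32 genes 6 were lower without overlap (18.8%, against 5.45% of all genes) and 1 higher (3.1%, against 6.57%). Among 21 circadian clock genes limma called 0, with 2 higher and 1 lower at an unadjusted p under 0.05 and 0 called with the block. Of all genes 4.74% were higher and 3.78% lower at that p. Arntl, the activator of the clock, read 7.40, 7.30 and 7.29 at 600 min and 6.98, 7.08 and 6.97 at 480 min, without overlap (change 0.32 ± 0.10, adjusted p = 0.251). Among 49 immediate early genes and MAP kinase feedback genes 0 were called with or without the block. At an unadjusted p under 0.05, 4 were higher, against 4.74% of all genes. Klf2 read 6.94, 6.87 and 7.12 at 600 min and 6.48, 6.75 and 6.79 at 480 min (change 0.31 ± 0.08, adjusted p = 0.186). The 29 genes of p53 and its targets had 0 calls, 0 at an unadjusted p under 0.05 and 0 with the block, with a median change of -0.021.

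Genes that had been called higher at 360 min against 0 min, 1689 in all (8.47% of all genes), held 20 of the 30 rises and 1 of the 6 falls at 600 min against 480 min. The 2103 called lower (10.5%) held 2 rises and 3 falls. As whole classes they moved little, with median changes of 0.01 and -0.013 at 600 min against 480 min. The arrays at 360 and 0 min are not part of the last comparison other than through the shared spread.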
